A study of Mus musculus with 2 samples.

Results

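Glucocorticoid response was followed through 6 genes of the 32524 in the deposited tables: *Nr3c1*, *Fkbp5*, *Tsc22d3*, *Klf9*, *Sgk1* and *Ddit4*. The genes were taken by name, as the glucocorticoid receptor gene and 5 known targets of the receptor, with earlier results of these data known. They were read in every cluster of both single-cell libraries, over the 10249 cells that had 500 or more genes and no more than 10% of their unique molecular identifiers (UMIs) from mitochondrial genes. All 6 were present in the tables, and 5 reached a mean of 5 counts per 1000000 UMIs (CPM) in the main myeloid cell compartment. The exception was *Ddit4*.

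The cells were CD45+CD11b+ synovial cells sorted from hind paws of wild-type C57BL/6 mice at day 17 of arthritis, and the mice had been 7 to 10 weeks old when the experiment began. One group had received a single intraperitoneal injection of 1 mg β-glucan, a fungal cell wall polysaccharide that induces trained innate immune memory, and the other had received PBS, in both cases 7 days before arthritis. Arthritis was thus shared by both groups. The series text and the methods give K/BxN serum transfer arthritis, whereas the sample labels describe arthritogenic antibodies followed by lipopolysaccharide. The methods list more than one β-glucan preparation and do not tie one to these cells. Each group was 1 library from a pool of 4 mice, and no label assigns a cell to a mouse, so differences between them could not be checked against replicates and carry no p-value.

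Glucocorticoids enter the cell and bind the receptor encoded by *Nr3c1*, which is held ready for the hormone by HSP90 and its co-chaperones, moves to the nucleus and binds palindromic DNA elements to induce its targets. FKBP5 is a co-chaperone that lowers the affinity of the receptor for hormone and so closes a feedback loop, and *Tsc22d3* encodes GILZ, an anti-inflammatory protein that interferes with NF-κB and AP-1 in macrophages. *Klf9* encodes a transcription factor, *Sgk1* a kinase that regulates ion channels and transporters, and *Ddit4* encodes REDD1, an inhibitor of mTORC1 that also responds to hypoxia and stress.

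The 3 strict matches to the palindromic element found in these genes are shown because they place the receptor's consensus letters beside the 2 genes that hold them. The letters searched were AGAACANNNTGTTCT, a palindrome that reads alike on both strands, over GRCm39 and the GENCODE vM39 genes. Each line gives 55 bases, 5′ to 3′ on the strand of the gene, with the match in capitals.
Sgk1 upstream site: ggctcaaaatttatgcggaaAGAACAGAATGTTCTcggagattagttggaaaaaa
Fkbp5 distal intronic site: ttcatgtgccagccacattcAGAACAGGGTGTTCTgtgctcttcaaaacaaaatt
Fkbp5 proximal intronic site: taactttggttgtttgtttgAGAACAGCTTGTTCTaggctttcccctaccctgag
The *Sgk1* match lies at chr10:21869600-21869614, on the plus strand, 958 bases before the start of the canonical transcript and within an intron of a longer *Sgk1* transcript. It was also held by 1 of the 6 RefSeq promoters of *Sgk1*, windows of 300 bases taken from GRCm38.p6. The *Fkbp5* matches lie in introns on the minus strand, at chr17:28639295-28639309 and chr17:28661393-28661407, 65850 and 43752 bases downstream of the start. Of the 21093 protein-coding genes searched, 68 (0.322%) held a strict match within 10 kb of the start and 4 (0.0190%) within 1 kb. Over the whole spans of these genes there were 275 matches, or 0.259 per Mb. *Tsc22d3*, *Klf9* and *Ddit4* held none in their span or within 10 kb of their start, which says only that these letters are not in those windows. The looser letters GNACANNNTGTNC, which overlap the strict ones, occurred within 10 kb of the start in 28.6% of genes, with 2 matches at *Sgk1*, 2 at *Fkbp5*, 1 at *Klf9* and 0 at *Tsc22d3* and *Ddit4*. *Nr3c1* was not searched. A match is a description of the letters, and binding was not measured in these cells.

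There were 81611849 UMIs in 7196 barcodes of the β-glucan library and 73874602 in 5760 of the PBS library, of which the filter kept 5696 (79.2%) and 4553 (79.0%) cells. The libraries shared 7 barcodes, 2 of them among the cells kept. Clusters were rebuilt without the 6 genes and without the other glucocorticoid lists. Of 19 clusters, 16 had at least 50 cells in each library, and they are given here by number and leading genes, with a cell type only where markers supported it. As the main myeloid cell compartment, counts were pooled over the macrophage-like and antigen-presenting cell-like (APC-like) clusters and over cluster 10 (*Plac8*, *Chil3*), which was left unnamed. The monocyte markers *Plac8*, *Chil3* and *Ly6c2* were among the 10 leading genes of cluster 10. The compartment held 4621 cells and 65553779 UMIs with β-glucan and 3676 cells and 60582467 UMIs with PBS. *Itgam*, which encodes CD11b, was at 346 and 354 CPM in the compartment, but at 39.1 and 42.6 CPM in B cell-like cluster 8 and at 10.7 and 28.5 CPM in the stromal-like cluster, so cells outside the labelled sort were present. All intervals are exact, at 95%, and cover counting error only. Values are given with β-glucan first and PBS second, and a log2 ratio is β-glucan over PBS. The counts are 3′ UMIs, so levels are compared between clusters for 1 gene and not between genes.

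*Nr3c1*, the receptor gene (ENSMUSG00000024431, GRCm39 chr18:39543598-39652474, minus strand), was present in every cluster and was slightly higher with β-glucan in the compartment. Its level was 281 CPM (277 to 285) with β-glucan and 244 CPM (240 to 248) with PBS, a log2 ratio of 0.20 (0.17 to 0.23). The value lay above the median of all 9811 genes measured, which was 0.03, and beside a median of 0.14 over the 1373 genes that span at least 100 kb, as *Nr3c1* does (109 kb). *Nr3c1* was higher with β-glucan in 14 of 16 clusters, and in 8 of them the counting interval lay above 0. How many of all genes were higher in as many clusters was not counted. Of 317 genes with a span within 1.5-fold and a level within 2-fold of *Nr3c1*, 79.5% had a lower ratio in the compartment. The highest ratio was in macrophage-like cluster 4 (*Olr1*, *Spp1*), at 270 against 213 CPM and 0.34 (0.23 to 0.45). APC-like cluster 6 (*Ccl17*, *Arg1*) went the other way, at 159 against 178 CPM and -0.16 (-0.27 to -0.05). Pairing cells between libraries, cluster by cluster, by how much of their UMIs came from such long genes left 3194 cells per library, and among these the log2 ratio of *Nr3c1* was 0.04.

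Across cell types the level of *Nr3c1* spanned 3.68-fold between the highest and lowest cluster, by the mean of both libraries. T cell-like cluster 11 was highest, at 661 and 580 CPM. The basophil/mast-like cluster followed at 431 and 394 CPM, and macrophage-like cluster 0 (*Ednrb*, *Cd209f*) at 366 and 340 CPM. Neighbors in this order were called apart where both libraries of one cluster lay above both of the next, which held for 4 of 15 neighbors. Both steps at the top and the last steps, to the stromal-like cluster (216 and 202 CPM) and to cluster 6, were of that kind.

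*Fkbp5*, the feedback co-chaperone (ENSMUSG00000024222, GRCm39 chr17:28618058-28737521, minus strand), was lower with β-glucan in the compartment by a wide margin relative to counting error. It was at 133 CPM (130 to 136) with β-glucan and 214 CPM (210 to 217) with PBS, a log2 ratio of -0.69 (-0.73 to -0.65). From the lowest ratio, it ranked 63 of 9811 genes measured, and 8 of the 3877 genes with at least 50 CPM. *Fkbp5* overlaps *Gm22146* on the other strand. It also shares its strand with the overlapping gene *Gm49838*, so some of its reads could have been assigned differently and its count is uncertain to that extent.

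The lower level of *Fkbp5* was seen in each of the 9 compartment clusters with enough cells. In macrophage-like clusters 0, 1 (*Vsig4*, *S100b*) and 2 (*Fxyd2*, *Tubb3*), *Fkbp5* was at 188, 125 and 136 CPM with β-glucan and at 274, 199 and 198 CPM with PBS. In clusters 4, 5 (*Gpnmb*, *Apoe*) and 7 (*Tnnt3*, *Acp5*), it was at 117, 107 and 129 CPM with β-glucan and at 208, 247 and 220 CPM with PBS. Within each of these 6 clusters, which share 1 library per group and are not replicates, the β-glucan value was the lower one. Cluster 5 had the lowest ratio within the compartment, -1.21 (-1.34 to -1.07), and clusters 0 and 2 were least different, both at -0.54. Cluster 7 held the muscle genes *Tnnt3* and *Tnni2*, the osteoclast genes *Acp5* and *Ctsk*, and *Chil3*, a monocyte marker, among its leading genes. All 9 macrophage markers were each found in at least 25% of its cells. In APC-like clusters 3 (*H2-Aa*, *H2-Eb1*) and 6, *Fkbp5* was at 128 and 95.9 CPM with β-glucan and at 231 and 161 CPM with PBS. In cluster 10 it was at 208 and 375 CPM, the highest PBS level of any of the 16 clusters.

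Outside the compartment *Fkbp5* was lower in 6 of 7 clusters. It was at 126 and 204 CPM in the neutrophil-like cluster (*S100a9*, *Retnlg*), at 72.2 and 127 CPM in B cell-like cluster 8 (*Igkc*, *Cd79a*), and at 65.6 and 167 CPM in the basophil/mast-like cluster (*Mcpt4*, *Cma1*), with log2 ratios of -0.70, -0.81 and -1.35. Differences were smaller in the stromal-like cluster (148 and 188 CPM) and in T cell-like cluster 11 (244 and 279 CPM), where the interval of the log2 ratio included 0 (-0.42 to 0.03). The unnamed cluster 14 (*Gzma*, *Gm2682*) was the exception at 140 and 103 CPM, from 130 and 58 UMIs, and its interval also included 0 (-0.01 to 0.92). Over the 16 clusters the interval lay below 0 in 14 and above 0 in 0. By the mean of both libraries, cluster 10 and cluster 11 were highest and cluster 8 lowest, a span of 2.93-fold, but 0 of 15 neighbors were apart because the libraries differed within almost every cluster.

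*Tsc22d3*, which encodes GILZ (ENSMUSG00000031431, GRCm39 chrX:139440091-139501408, minus strand), was lower with β-glucan in the compartment and in all 16 clusters. The compartment level was 288 CPM (284 to 292) with β-glucan and 385 CPM (380 to 390) with PBS, a log2 ratio of -0.42 (-0.45 to -0.39) and rank 190 of 9811 from the lowest. In macrophage-like clusters 0, 1 and 2 the level was 366, 347 and 330 CPM with β-glucan and 530, 438 and 426 CPM with PBS. In clusters 4, 5 and 7 it was 251, 234 and 311 CPM with β-glucan and 390, 401 and 408 CPM with PBS. As for *Fkbp5*, cluster 5 had the lowest ratio of the compartment, -0.78 (-0.87 to -0.68). The APC-like clusters 3 and 6 had 234 and 164 CPM with β-glucan and 347 and 227 CPM with PBS, and cluster 10 had 307 and 451 CPM.

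Outside the compartment, *Tsc22d3* was at 246 and 392.3 CPM in B cell-like cluster 8, at 219 and 329 CPM in the neutrophil-like cluster, at 264 and 444.1 CPM in the basophil/mast-like cluster and at 112 and 193 CPM in T cell-like cluster 11. The last had the lowest ratio of the 16 clusters, -0.79 (-1.10 to -0.48). The stromal-like cluster stood at the other end, with 219 and 228 CPM and -0.06 on the log2 scale (-0.26 to 0.14). The interval lay below 0 in 14 of 16 clusters and included 0 in the stromal-like cluster and in cluster 14. Macrophage-like clusters 0 and 1 were highest and T cell-like cluster 11 lowest by the mean of both libraries, a span of 2.94-fold, again with 0 of 15 neighbors apart. By these means, T cell-like cells were highest of all for *Nr3c1* and lowest for *Tsc22d3*.

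**Figure D1:**
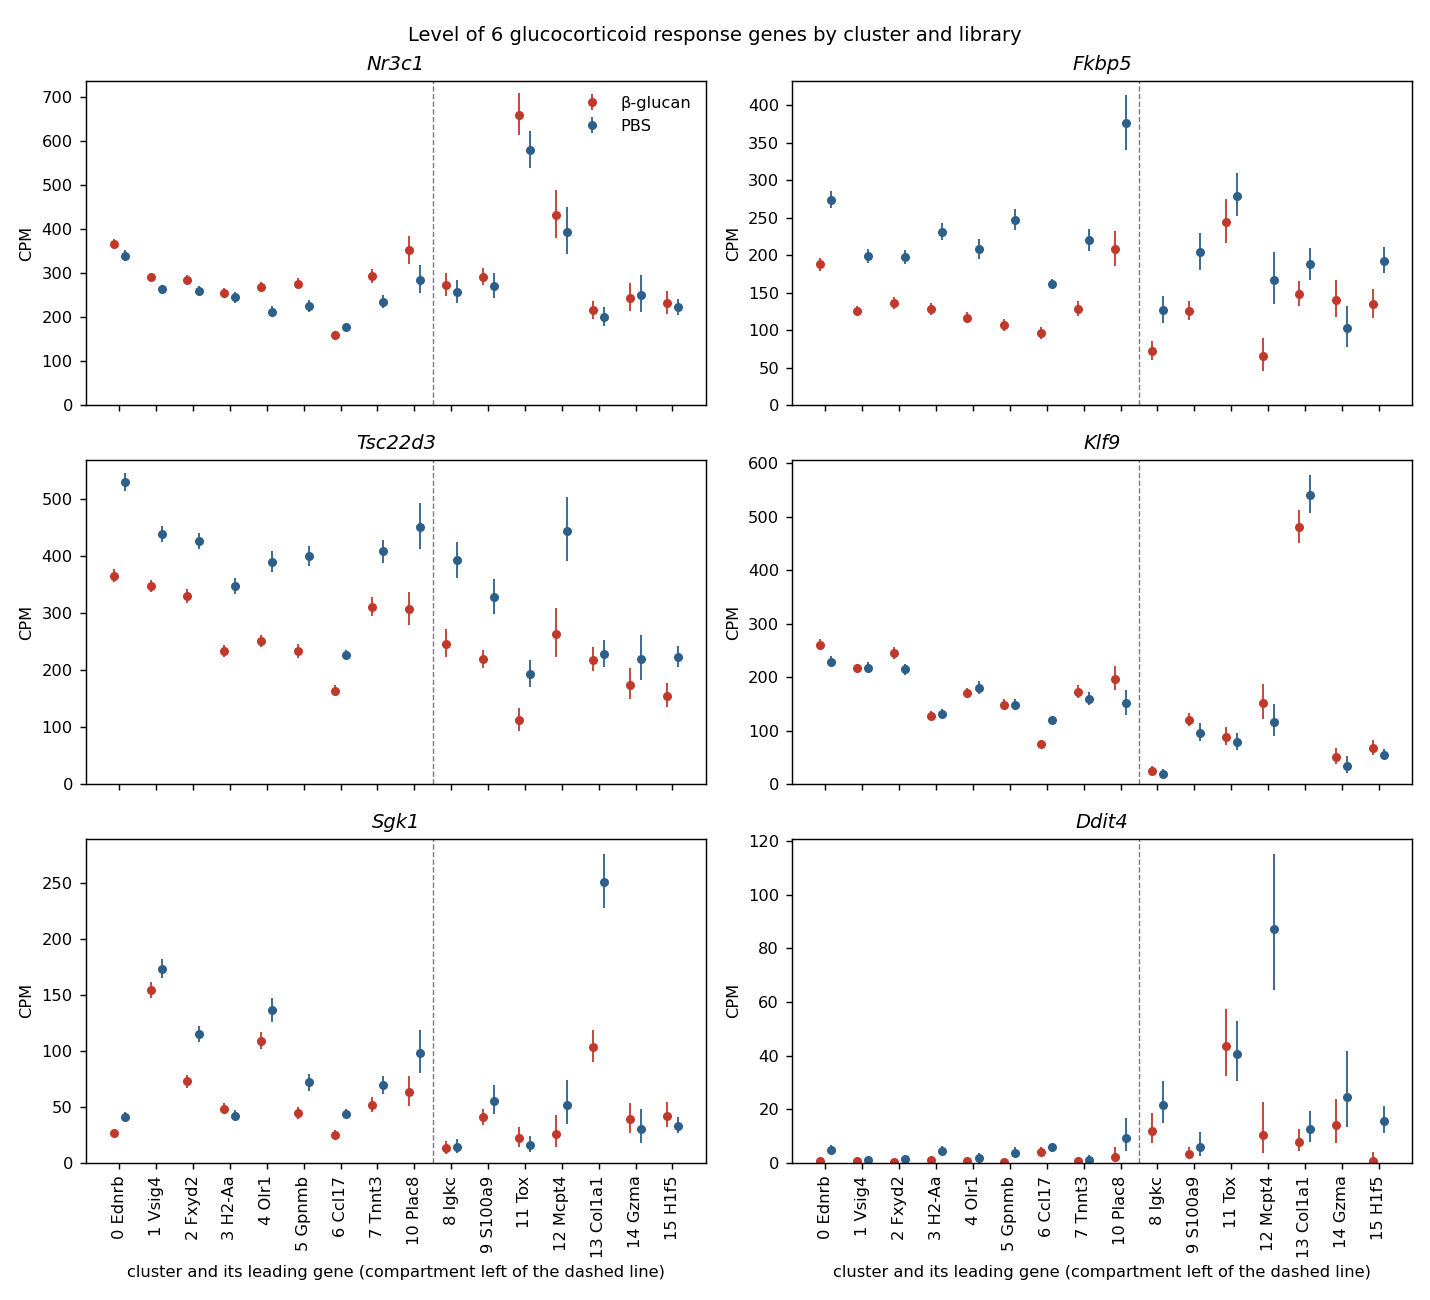
Level of the 6 genes in CPM (linear axis from 0) in the 16 clusters with at least 50 cells per library, with the compartment clusters left of the dashed line. Points are the summed counts of 1 library, red for β-glucan and blue for PBS, and bars are exact 95% counting intervals. For *Fkbp5* the red point lies below the blue one in 15 clusters and for *Tsc22d3* in 16, while *Klf9* and *Sgk1* reach 542 and 251 CPM in the stromal-like PBS cells.

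*Klf9*, the transcription factor gene (ENSMUSG00000033863, GRCm39 chr19:23118187-23148497, plus strand), did not share the lower level of *Fkbp5* and *Tsc22d3*. It was at 185 CPM (182 to 189) with β-glucan and 174 CPM (170 to 177) with PBS, a log2 ratio of 0.09 (0.06 to 0.13), and 68.1% of all genes measured had a lower ratio. Its direction was mixed over the clusters, with the interval above 0 in 4 and below 0 in 2. APC-like cluster 6 had 75.6 and 120 CPM, a log2 ratio of -0.66 (-0.82 to -0.51), whereas cluster 10 had 198 and 152 CPM, or 0.38 on that scale (0.10 to 0.66). The direction in the compartment depended on the processing, since the ratio was -0.03 among cells paired on long-gene UMIs.

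*Klf9* ranged widely between cell types, 22.8-fold between the highest and lowest cluster. The stromal-like cluster was highest, at 481 and 542 CPM, and apart from the next. Macrophage-like clusters 0, 2 and 1 followed, at 261 and 229 CPM, 245 and 215 CPM, and 217 and 218 CPM. B cell-like cluster 8 was lowest, at 25.3 and 19.7 CPM from 42 and 30 UMIs, below cluster 14 at 50.7 and 33.6 CPM. Of 15 neighbors, 7 were apart, the most of the 6 genes.

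*Sgk1*, the kinase gene (ENSMUSG00000019970, GRCm39 chr10:21758083-21875802, plus strand), lay just short of the 0.25 log2 used to call a difference. It was at 72.4 CPM (70.4 to 74.5) with β-glucan and 85.3 CPM (83.0 to 87.6) with PBS, a log2 ratio of -0.24 (-0.29 to -0.18), rank 525 of 9811 from the lowest. *Sgk1* spans 118 kb, and the median over genes that span at least 100 kb was 0.14. Of the 9 compartment clusters 8 were lower, 7 of them by more than the compartment as a whole. Clusters 0, 2 and 5 had 26.7, 72.9 and 44.5 CPM with β-glucan and 41.0, 115 and 71.9 CPM with PBS, with log2 ratios of -0.62, -0.66 and -0.69. Cluster 1, which had the highest level of the compartment, differed least of the lower clusters, at 154 and 173 CPM and -0.17 (-0.27 to -0.07). Cluster 3 was the exception at 48.5 and 42.3 CPM, with an interval that included 0 (-0.03 to 0.42). With equal weight for each cluster, the log2 ratio of the compartment was -0.42.

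The lowest ratio of *Sgk1* was in the stromal-like cluster (*Col1a1*, *Dcn*), at 103.7 CPM (90.2 to 119) with β-glucan and 251 CPM (227 to 276) with PBS, from 213 and 413 UMIs, a log2 ratio of -1.27 (-1.52 to -1.03). Cluster 17 (*Acta2*, *Fabp4*), which had 55 and 29 cells and so was not among the 16, had 115 and 272 CPM and -1.24 (-1.68 to -0.80). *Ptprc*, the CD45 gene, was lower in both clusters than in the compartment, where it was at 577 and 568 CPM. It was at 19.5 and 34.6 CPM in the stromal-like cluster but at 190 and 158 CPM in cluster 17. *Sgk1* was higher with β-glucan in 4 of 16 clusters, each with an interval that included 0. Its level spanned 12.8-fold over the clusters and 4.85-fold within the compartment, with macrophage-like cluster 1 second at 154 and 173 CPM and B cell-like cluster 8 lowest at 13.2 and 14.4 CPM.

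*Ddit4*, which encodes REDD1 (ENSMUSG00000020108, GRCm39 chr10:59785491-59788492, minus strand), was scarce in the compartment, at 74 UMIs with β-glucan and 217 with PBS. The level was 1.13 CPM (0.886 to 1.42) and 3.58 CPM (3.12 to 4.09), a log2 ratio of -1.67 (-2.07 to -1.28). It was lower in all 9 compartment clusters, in 5 of which the interval lay below 0. *Ddit4* was more abundant outside the compartment by the mean of both libraries, with a span of 59.7-fold over the 16 clusters. The low end of that span, macrophage-like cluster 1, rested on 7 and 9 UMIs. The basophil/mast-like cluster had 10.4 CPM (3.80 to 22.5) and 87.0 CPM (64.4 to 115), from 6 and 49 UMIs, a log2 ratio of -3.07 (-4.59 to -1.85). Proliferating-like cluster 15 (*H1f5*, *Top2a*) had 1 and 40 UMIs, a log2 ratio of -4.45 with an interval from -9.79 to -1.89. T cell-like cluster 11 was the 1 cluster of 16 that was not lower, with 43.6 and 40.5 CPM, from 51 and 54 UMIs. With β-glucan its level was the highest of the 16.

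Hypoxia and the integrated stress response also act on *Ddit4*, and their genes were read beside it. All 7 hypoxia response genes measured were lower with β-glucan, 5 of them past 0.25, with a median log2 ratio of -0.57. Of all 9811 genes measured, 42.4% were lower and 4.83% were lower past 0.25. *Ankrd37* was at 5.37 and 12.99 CPM (-1.27). *Vegfa*, the vascular growth factor gene, was under the mean of 5 CPM but not in the PBS library, at 2.12 and 6.77 CPM (-1.67). *Ndrg1* and *P4ha1* differed least, at -0.08 and -0.06. Of the 4 integrated stress response genes measured, 1 was past 0.25, *Sesn2* at 5.63 and 6.97 CPM (-0.31), with *Atf5* at -0.20, *Ddit3* at -0.04 and *Atf4*, the transcription factor of the pathway, at -0.01. The part of either pathway in the level of *Ddit4* was not tested.

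**Figure D2:**
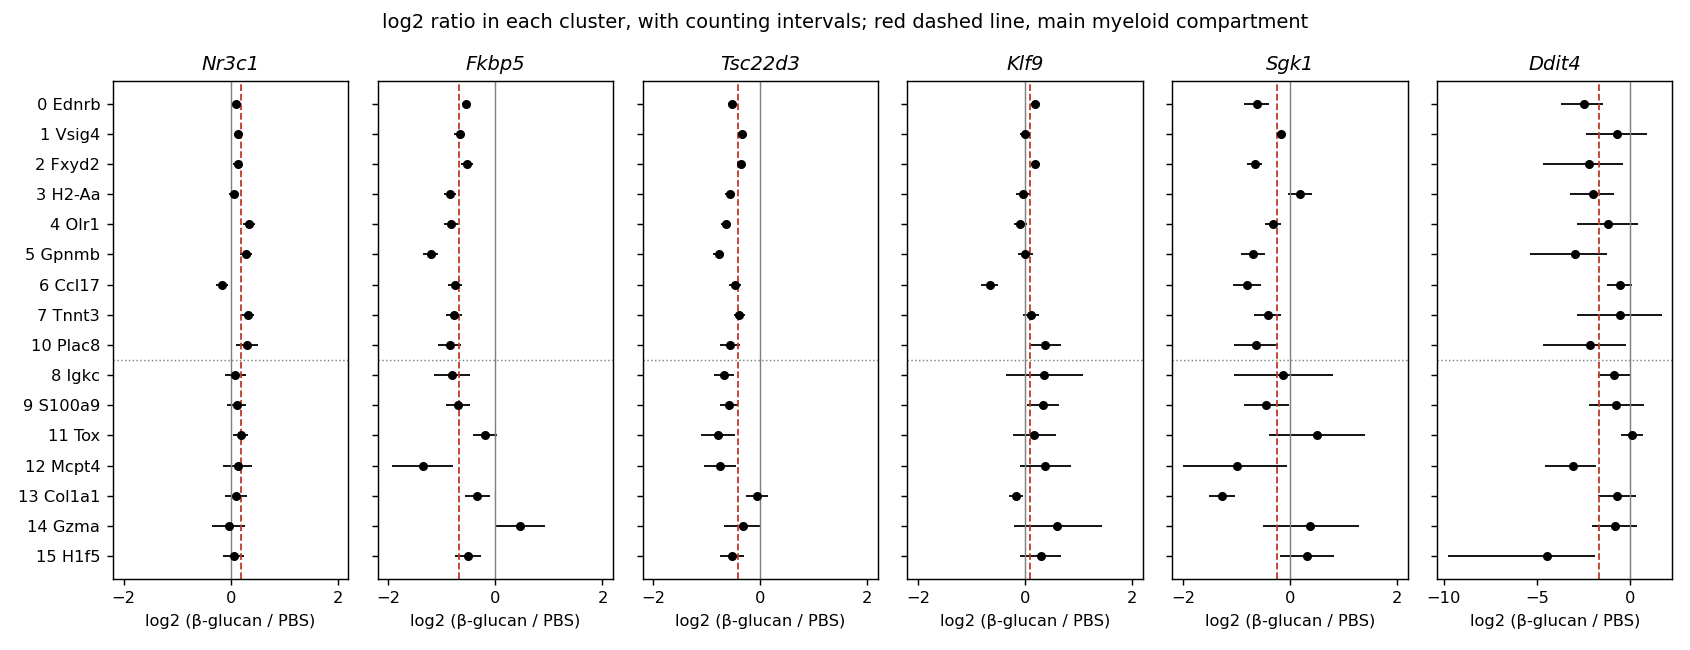
log2 ratio of β-glucan over PBS for each of the 6 genes (x axis; *Ddit4* has a wider axis) in the 16 clusters (y axis, compartment above the dotted line). Points are ratios of summed counts, bars exact 95% counting intervals, the grey line 0 and the red dashed line the compartment. *Tsc22d3* lies left of 0 in 16 clusters and *Fkbp5* in 15, *Nr3c1* lies right of 0 in 14, and *Sgk1* is farthest left in the stromal-like cluster, at -1.27.

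Set against all genes, 2 of the 5 genes measured, *Fkbp5* and *Tsc22d3*, were lower with β-glucan by at least 0.25 log2, a size reached in that direction by 4.83% of 9811 genes. None was higher by that size, which 7.6% of genes were. *Ddit4* was also past 0.25 but under the minimum level. In all 16 clusters, 53 of 6954 genes with at least 20 CPM (0.762%) were lower, and *Tsc22d3* was one of them, with the median over clusters the lowest but 2 of the 53. *Fkbp5* was among the 2.14% that were lower in all clusters or all but 1. Of genes that span at least 100 kb, 3.28% were lower and 23.1% higher past 0.25, and *Fkbp5* spans 119 kb. Among cells paired on long-gene UMIs the log2 ratios of *Fkbp5* and *Tsc22d3* were -0.83 and -0.50.

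The make-up of the compartment differed between libraries. All 7 of the APC markers measured were lower with β-glucan, with a summed level of 7354 and 10929 CPM, while the 9 macrophage markers summed to 10303 and 10018 CPM. APC-like cluster 6 had 285 and 507 cells. With equal weight for each cluster the log2 ratios were -0.77 for *Fkbp5* and -0.54 for *Tsc22d3*. The ratios within single clusters are given above, and the mix of cells within a cluster may also differ between libraries. The part of make-up in these ratios was not tested. Markers of other types were low in the compartment, with the 7 stromal markers at a summed 209 and 193 CPM, the 7 B cell markers at 96.4 and 87.9 CPM and the 4 erythroid markers at 0.824 and 0.858 CPM.

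The difference in *Fkbp5* was seen in the number of cells with the transcript and in the UMIs per cell. Cells were thinned to 5000 UMIs, which left 4243 cells with β-glucan and 3392 with PBS and left out 378 and 284 shallower ones. The mean of *Fkbp5* was 0.699 and 1.11 UMIs per thinned cell, and the share of cells with a UMI was 43.4% and 56.1% (68.4% and 79.0% before thinning). Cells with 3 or more *Fkbp5* UMIs made up 6.10% and 13.5%. *Tsc22d3* had a mean of 1.55 and 2.05 UMIs, a share with a UMI of 70.9% and 79.1% (88.4% and 92.8% before thinning), and 3 or more UMIs in 22.4% and 32.3% of cells. *Nr3c1* went the other way, with 71.2% and 65.7% of cells (88.9% and 87.5% before thinning).

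For the background from free RNA, *Csf1r* and *C1qa*, macrophage genes that B cells lack, had a UMI in 27.4% and 32.6% of 215 thinned B cell-like cells with β-glucan and in 17.1% and 24.3% of 181 with PBS. The median depth before thinning was 13034 and 15469.5 UMIs per compartment cell and 5716 UMIs in B cell-like cluster 8 over both libraries. Free RNA of a gene depends on that gene's own level, so these shares set no background for the 6 genes. The share for *Sgk1* in the compartment was 24.6% and 28.3% (43.3% and 49.8% before thinning) and is not read as a difference. The B cell-like shares, over clusters 8 and 16, may also hold mixed droplets, since no doublets were removed. *Cd163*, a macrophage gene, was at 314 and 52.0 CPM in B cell-like cluster 16. The part of free RNA or mixed droplets in the differences was not tested. Within single cells the 6 genes were at most weakly related, with a highest Pearson r of 0.112 for *Fkbp5* and *Tsc22d3*, which at this sparsity is no finding.

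**Figure D3:**
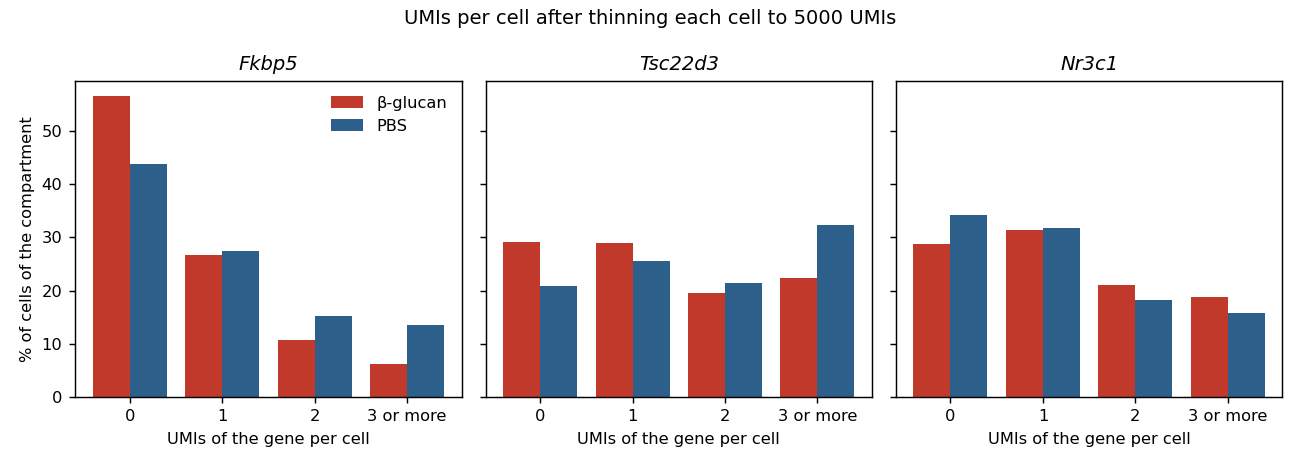
Percentage of compartment cells (y axis, from 0) with 0, 1, 2 or at least 3 UMIs of *Fkbp5*, *Tsc22d3* and *Nr3c1* (x axis) after each cell was thinned to 5000 UMIs, for β-glucan (red, 4243 cells) and PBS (blue, 3392 cells). Cells with at least 3 *Fkbp5* UMIs are 6.10% with β-glucan and 13.5% with PBS, and *Nr3c1* is shifted the other way.

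No gene of the receptor's chaperones or coregulators reached 0.25 in either direction. Each of the 8 receptor chaperone genes was lower with β-glucan, with a median of -0.15, beside 42.4% of all genes lower and a median of 0.03. These 8 genes span 5.01 to 19.4 kb. The median was -0.06 over genes that span under 10 kb and 0.03 over genes of 10 to 100 kb. *Dnajb1* and *Hspa8* were lowest, at -0.22 and -0.20, and *Ptges3*, which encodes p23, and *Ppid* were highest, at -0.03 and -0.06. Of 7 coregulator genes, 6 were higher, with a median of 0.13. Of the 7, 5 span at least 100 kb, and the median over all genes of that span was 0.14, so the coregulators lay near it. *Ncoa2*, a coactivator that binds the receptor, was at 0.22 and *Ep300* at 0.18, while *Ncoa1*, the lowest, was at -0.03.

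Of the genes of ligand metabolism, *Hsd11b1* encodes the enzyme that regenerates active glucocorticoid from its inert form and had 41 and 44 UMIs in the compartment, 0.625 and 0.726 CPM. It was far higher in cluster 14, at 181 and 279 CPM (168 and 158 UMIs), in T cell-like cluster 11, at 79.5 and 76.4 CPM, in B cell-like cluster 8, at 39.7 and 28.9 CPM, and in the neutrophil-like cluster, at 35.3 and 44.7 CPM. *H6pd*, which supplies that enzyme with its cofactor, was at 19.8 and 17.1 CPM in the compartment (0.21). The mineralocorticoid receptor gene *Nr3c2*, whose product also binds glucocorticoids, was at 25.5 and 20.6 CPM (0.31, from 0.20 to 0.42), with its highest level of the 16 clusters in basophil/mast-like cells, at 166 and 114 CPM. *Nr3c2* spans 346 kb, and 23.1% of genes that span at least 100 kb were higher past 0.25.

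The other glucocorticoid-induced genes did not share a direction. Of 16 measured among 20, 4 were lower and 4 higher past 0.25, beside 4.83% and 7.6% of all genes, with a median of 0.06. *Per1*, a clock gene with rapid glucocorticoid induction, was at 35.1 and 66.8 CPM, a log2 ratio of -0.927 (-1.001 to -0.853), and like *Tsc22d3* was lower in all 16 clusters. The neutrophil-like cluster had the highest *Per1* level of the 16, at 80.1 and 170 CPM. *Errfi1*, which encodes an inhibitor of EGF receptor signaling, was at 36.6 and 60.1 CPM (-0.71). *Dusp1*, which encodes a MAP kinase phosphatase, was at 247 and 344 CPM (-0.48). It was uneven over clusters, lower in 12 of 16 and higher in 4. The log2 ratio was -1.22 in macrophage-like cluster 0, 0.18 in APC-like cluster 3 and 1.62 in B cell-like cluster 8 (80.7 and 26.2 CPM). In cluster 8 the macrophage gene *Cd163* was also higher with β-glucan, at 47.0 and 10.5 CPM. The part of free RNA or mixed droplets in the *Dusp1* value there was not tested. Of the higher genes, *Sesn1* was at 173 and 114 CPM (0.59), *Bcl6* at 72.3 and 53.6 CPM (0.43) and the decoy receptor gene *Il1r2* at 26.1 and 19.5 CPM (0.42). Cluster 6 held 1080 of the 1712 and 937 of the 1182 *Il1r2* UMIs of the compartment, from 285 and 507 cells. The pooled *Il1r2* ratio therefore also reflects make-up. Within cluster 6 the ratio was 1.17, and *Il1r2* was lower in 1 of 9 compartment clusters. *Il1r2* went the other way in the neutrophil-like cluster, which had most of it, at 3288 and 5631 CPM (-0.78). The scavenger receptor gene *Cd163* and the transcription factor gene *Zbtb16* stayed short of 0.25, at 0.24 and 0.22. *Zbtb16* was also uneven over clusters, at 31.0 and 21.2 CPM in cluster 2 (0.55) but at 77.6 and 130 CPM in cluster 10 (-0.75).

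Inflammatory genes that glucocorticoids repress were likewise divided. Of 6 measured among 10, *Il1b* (33.6 and 24.5 CPM, 0.45), *Ccl3* (22.6 and 17.1 CPM, 0.40) and 1 more were higher past 0.25, and the chemokine genes *Ccl2* (37.8 and 60.9 CPM, -0.69) and *Cxcl2* (72.1 and 96.7 CPM, -0.42) and 1 more were lower, with a median of -0.07. Immediate-early genes, which can be raised by tissue digestion, were lower past 0.25 in 5 of 12 and higher in 0, with a median of -0.14, beside 4.83% and 7.6% of all genes. *Nr4a1* and *Btg2* were lowest, at -0.49 and -0.40, and *Jun* and *Hspa1a* highest, at 0.22 and 0.18. Among 3233 cells per library paired within clusters on their share of immediate-early UMIs, the log2 ratios of *Fkbp5* and *Tsc22d3* were -0.76 and -0.51. The time of day of sampling is not given. Of 12 clock genes measured, a list added after *Per1* had been seen, 3 were lower past 0.25 and 1 higher, with a median of 0.14. *Bhlhe40* and *Per2* were lowest, at -0.56 and -0.44, and *Bhlhe41* and *Arntl* highest, at 0.48 and 0.24. The part of the clock in the level of *Per1* was not tested.

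**Figure D4:**
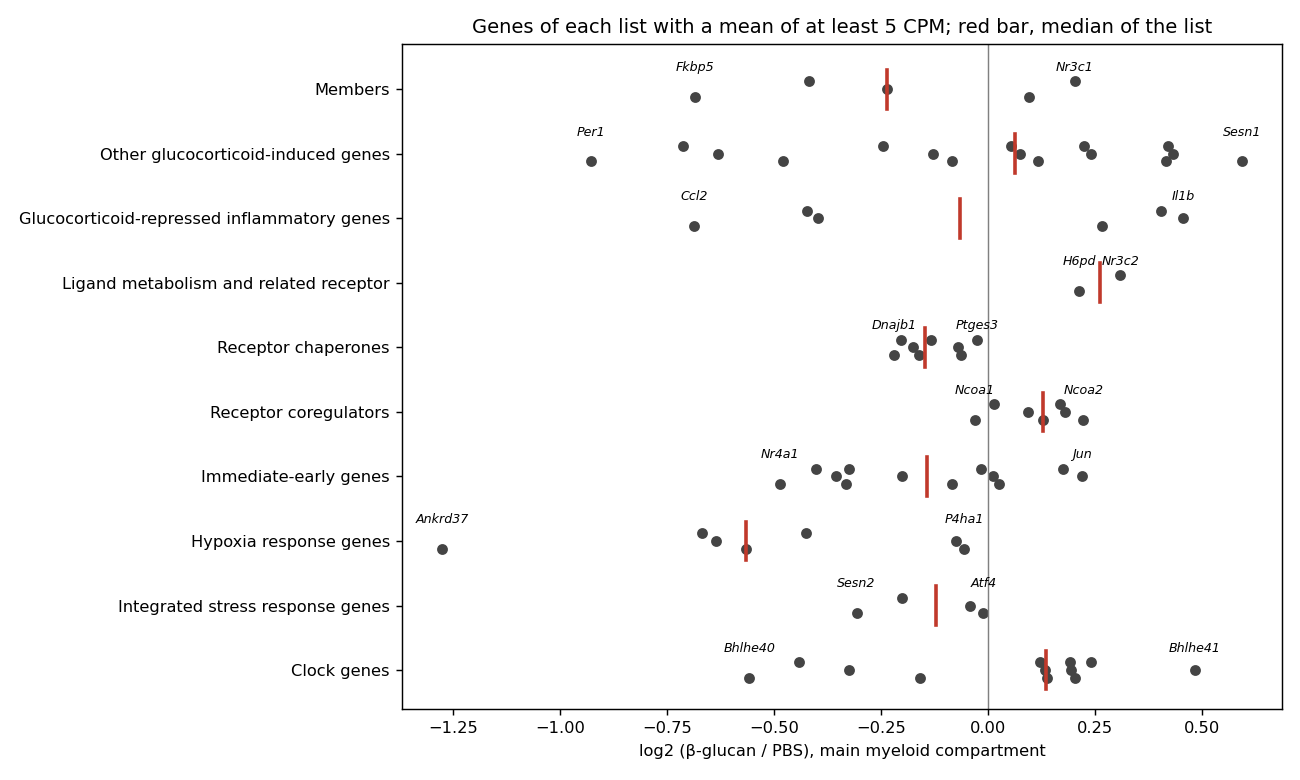
log2 ratio of β-glucan over PBS in the compartment (x axis) for those genes of each list whose mean reached 5 CPM (y axis). Each point is 1 gene, red bars are list medians, and the lowest and highest gene of a list are named. The 7 hypoxia response genes all lie below 0, the 8 receptor chaperone genes lie between -0.22 and -0.03, and the other glucocorticoid-induced genes run from -0.93 for *Per1* to 0.59 for *Sesn1*.

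Across cell types, the genes whose profile was most like each of the 6 were found by Pearson r of log2(CPM + 5) over 32 profiles, 16 clusters in each of 2 libraries. The profiles of a library share that library, so r is a description. *Klf9* had the closest partners, *Rusc2*, *Wipi1* and *Arhgef12*, each at 0.92 to 0.93. *Nr3c1* was most like *Efcab14* (0.884), *Hacd3* (0.799) and *Znrf1* (0.771), and *Sgk1* was most like *Pmepa1* (0.853), *Vcan* (0.848) and *Phldb1* (0.847). *Ddit4* was most like *Ccnd2* (0.877), *Abhd2* (0.855) and *Senp6* (0.849). In compartment profiles *Ddit4* was at most 9.16 CPM, and most of these lay under the 5 CPM added before the logarithm. *Fkbp5* and *Tsc22d3* had looser partners, *Cnnm2* (0.738), *Camk1d* (0.655) and *Zfp64* (0.634) for the former and *Glce* (0.716), *Blvrb* (0.690) and *Vapa* (0.682) for the latter. Among the 6 genes, *Klf9* and *Sgk1* were most alike, at 0.741, both highest in stromal-like cells by the mean of both libraries, although for *Sgk1* macrophage-like clusters 1 and 4 were higher with β-glucan (154 and 109 CPM against 103.7 CPM). The pair *Fkbp5* and *Tsc22d3* reached 0.353.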

How the data were processed

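The authors deposited counts of UMIs per gene and barcode, made with Cell Ranger 7.0.0 on GRCm39 and Ensembl 104 genes and not normalized. The methods do not state whether intronic reads were counted. The tables held 7196 and 5760 barcodes, which equal the cell numbers the study gives for its map of clusters, although its stated filter, applied here, left 5696 and 4553. The study's own filter was applied (500 genes or more, mitochondrial share no higher than 10%). The merged libraries were clustered again with Seurat 5.3.0, under R 4.3.3, after sctransform 0.4.2 had picked 3000 variable genes (2971 used, 30 principal components, 20 neighbors, resolution 0.7). The authors' cell names were not used, so differences from the study's clusters may come from the rebuilt names. Scrublet (scanpy 1.11.5) marked 0 cells with β-glucan and 2 with PBS, so the caller had not worked and no doublets were removed.

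Counts were summed per library and cluster in Python 3.11.15 (numpy 2.4.6, scipy 1.17.1, pandas 2.3.3). CPM intervals were exact Poisson and ratio intervals exact Clopper-Pearson intervals, at 95%. In sums simulated with counting error alone, for the 9811 genes of the compartment, 95.3% of intervals held the true ratio. Variation between cells, mice or libraries was not simulated, so this checks the calculation only. A gene was measured at a mean of 5 CPM in the compartment, and a call was 0.25 log2. Of the 32524 genes, 31870 were found in GENCODE vM39. Genes on chromosome 18 were left out of the search for DNA elements.

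The 6 genes and the lists were chosen with earlier results of these data known, and the clock list after *Per1* had been seen. Named genes were the 6, the 3 genes most like each, a fixed set (*Per1*, *Dusp1*, *Zbtb16*, *Cd163*, *Il1r2*, *Hsd11b1*, *Nr3c2*), and of each list those with the 2 highest and 2 lowest ratios among genes with 5 CPM in either library. One gene that this rule names is not reported here. Alternatives were 2 other cell filters, leaving out cells of high Scrublet score, other totals, TMM scaling (edgeR 4.0.16), equal weights, thinning, pairing of cells, all cells of the sort and other clusterings.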

Additional observations from a re-analysis of the deposited data

Results flagged for a closer look

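Compartment clusters with opposite signs drew attention for a pair of genes. *Nr3c1* was higher with β-glucan in macrophage-like cluster 4 (log2 ratio 0.340) and lower in APC-like cluster 6 (-0.158). *Klf9* was higher in the unnamed cluster 10 (0.379) and lower in cluster 6 (-0.664). *Ccl17* and *Arg1*, the leading genes of cluster 6, were themselves lower with β-glucan in the compartment, at -1.72 and -4.08. Cluster 6 had 285 cells with β-glucan and 507 with PBS, so these compartment ratios do not separate its size from the mix of cells within it. The mix of cells within cluster 6 was not tested. The difference between the clusters was not tested, since each group was 1 library.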

How the results depend on the processing

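No paired analysis was possible because each group was 1 library of pooled mice and no label links the pools. With 1 library per group, no library could be left out. Over 16 alternatives *Fkbp5* ranged from -0.83 to -0.66, *Tsc22d3* from -0.54 to -0.39, *Sgk1* from -0.42 to -0.23, *Ddit4* from -1.70 to -1.19 and *Nr3c1* from 0.04 to 0.20, each with 1 direction, and the number of the 6 genes past 0.25 was 3 or 4. The fourth was *Sgk1*, without a cell filter, over all cells of the sort, with TMM scaling and with either equal weight. *Sgk1* was also past 0.25 in thinned cells, in both pairings and without cluster 4, which had the highest immediate-early level. These counts include *Ddit4*, which lay under the minimum of 5 CPM. In the main processing, 4.83% of the 9811 genes measured were lower past 0.25 and 7.6% were higher. Pairing of cells by long-gene content gave 0.0385 for *Nr3c1*, -0.83 for *Fkbp5*, -0.50 for *Tsc22d3* and -0.335 for *Sgk1*, and *Klf9* reversed to -0.0294. Among cells paired on immediate-early UMIs they were 0.14 for *Nr3c1*, -0.76 for *Fkbp5*, -0.51 for *Tsc22d3*, 0.0454 for *Klf9* and -0.38 for *Sgk1*. With equal weight per cluster they were -0.77 for *Fkbp5*, -0.54 for *Tsc22d3*, 0.0436 for *Klf9* and -0.42 for *Sgk1*. Equal weight per cell gave -0.31 for *Sgk1*, and thinned cells gave 0.0548 for *Klf9*. *Ddit4* was at -1.19 without a filter on cells and at -1.21 over all cells of the sort. For levels relative to the compartment, on the log2 scale, T cell-like *Nr3c1* was 1.24 and became 1.33 without the cells of highest Scrublet score and 1.32 with equal weight per cell. T cell-like *Fkbp5* went from 0.60 to 0.80 without the cells of highest Scrublet score. Stromal-like *Klf9* went from 1.51 to 1.44 at resolution 0.5. Stromal-like *Sgk1* went from 1.17 to 1.03 with equal weight per cell and to 0.855 in thinned cells. Basophil/mast-like *Ddit4* went from 4.37 to 3.88 with equal weight per cell and to 5.01 in thinned cells, and *Tsc22d3* there reversed from 0.07 to -0.16 in thinned cells. Thinning left out cells with fewer than 5000 UMIs, and the median of the basophil/mast-like cluster was 3792 UMIs. Its thinned values thus come from only the deeper part of its 97 and 111 cells. They do not show the effect of equal depth on the same cells. The causes of the shifts under these alternatives were not tested. Depth limits *Ddit4* most, at 74 and 217 UMIs in the compartment.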
